A study of Bos taurus with 6 samples.

Results

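The genes of the mitochondrial respiratory chain and of ATP synthase were taken from the bovine EmbryoGENE array as every gene with a probe whose annotated symbol begins with NDUFA, NDUFB, NDUFC, NDUFS, NDUFV, UQCR, COX4I, COX5, COX6, COX7, COX8 or ATP5. This rule named 78 of the 15216 genes that the array names, through 118 of its probes. They comprised 36 subunits of complex I, 3 assembly factors of complex I, 7 subunits of complex III, 14 of complex IV, 15 of ATP synthase and 3 genes outside these groups. Of the 78 genes, 73 had signal above background and were tested, among 9933 tested genes in all. Current symbols are used throughout, so that the array's UQCR is UQCR11 and its ATP5H is ATP5PD.

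RNA came from granulosa cells of multiparous beef cows, which line the follicle and surround the oocyte. In the long FSH group, FSH was injected every 12 h for 7 days and prostaglandin F2 alpha on day 6, and in the conventional FSH group FSH was injected every 12 h for 4 days and prostaglandin F2 alpha on day 3. Both groups had their follicles ablated at the start, received LH, and were ovariectomized 24 h after it. Of 6 cows treated in each group, 3 were arrayed, with RNA of the 3 largest follicles of a cow pooled in equal amounts. Each long FSH cow was hybridised with 1 conventional FSH cow on 2 arrays with the dyes swapped, which makes 6 arrays and n = 3 cow pairs. Each p therefore rests on 3 pairs of cows, and limma draws the variance of a gene toward a value shared by all tested genes. A gene that hardly varied between pairs can thus have a larger p than its own SD would give. The values below are log2 ratios of long FSH over conventional FSH. The sample labels and the design text of the series disagree on which dye each group carried, so the direction, which follows the design text and the legends of the study, is likely but not settled. In the direction used, STAR, which brings cholesterol into mitochondria, was higher after long FSH at a mean of 2.94, and INHBA and CYP19A1, for an inhibin subunit and aromatase, were lower at -3.79 and -1.81. With the opposite sign, each gene called lower would be higher and the reverse.

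Complex I takes electrons from NADH and passes them to ubiquinone, complex III moves them on to cytochrome c, and complex IV hands them to oxygen. The proton gradient that these complexes build drives ATP synthase, a rotary enzyme with a catalytic F1 head, a membrane part called Fo and a peripheral stalk that holds both together. The core subunits of complex I carry its cofactors and the ubiquinone site, whereas its accessory subunits serve assembly and stability. All members are nuclear genes, and the subunits encoded by mitochondrial DNA are not covered by the rule. Mitochondria of granulosa cells also hold the enzyme that cuts the side chain of cholesterol, the first step of progesterone synthesis.

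Between 41.8% and 51.4% of the probes on an array lay above background in either dye. Of the 73 tested members, 65 were above background in all 12 readings, and none was saturated. The granulosa label was set against 9 markers, of which 7 were tested, among them FSHR, CYP19A1, INHA and AMH, while FOXL2 and HSD17B1 were not above background often enough. The summed signal of these 7 markers ran from 24760 to 38700 units in long FSH cows and from 83620 to 110300 units in conventional FSH cows. INHBA made most of this gap, at 13.37, 10.97 and 11.27 on the log2 scale in long FSH cows and 15.46, 16.03 and 15.50 in conventional FSH cows. INHBA and CYP19A1 passed the study's threshold as lower. The other tested markers did not pass, with mean log2 ratios of -1.24 for CYP11A1, -0.68 for AMH, -0.65 for INHA, -0.33 for FSHR and -0.09 for AMHR2. In such bulk RNA, fewer cells of a type and less RNA per cell cannot be told apart.

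Most members were modestly lower after long FSH. The mean log2 ratio was below 0 for 56 of the 73 members (76.7%, against 47.2% of all tested genes) and above 0 for 17. The median was -0.23 (a fold of 0.85), against a median of 0.03 over all 9933 tested genes. The interquartile range was -0.48 to -0.05 for the members and -0.24 to 0.30 for all tested genes. The study's threshold, an unadjusted p of 0.05 or less in limma and at least a 2-fold difference, was passed downward by 3 members, NDUFS4, UQCR11 and NDUFAF3, or 4.11% of them, against 1.98% of all tested genes. It was passed upward by 1 member, NDUFB11, against 3.32% of all tested genes. At an unadjusted p of 0.05 or less with any fold, 7 members (9.59%) were lower, against 4.00% of all tested genes, and 1 was higher, against 5.91%. In both directions together these were 10.96% of the members and 9.91% of all tested genes. After Benjamini-Hochberg adjustment over all tested genes, limma called 0 members and 0% of all genes at 0.05 and 2-fold. The lowest adjusted p of a member was 0.240, for NDUFS4.

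**Figure D1:**
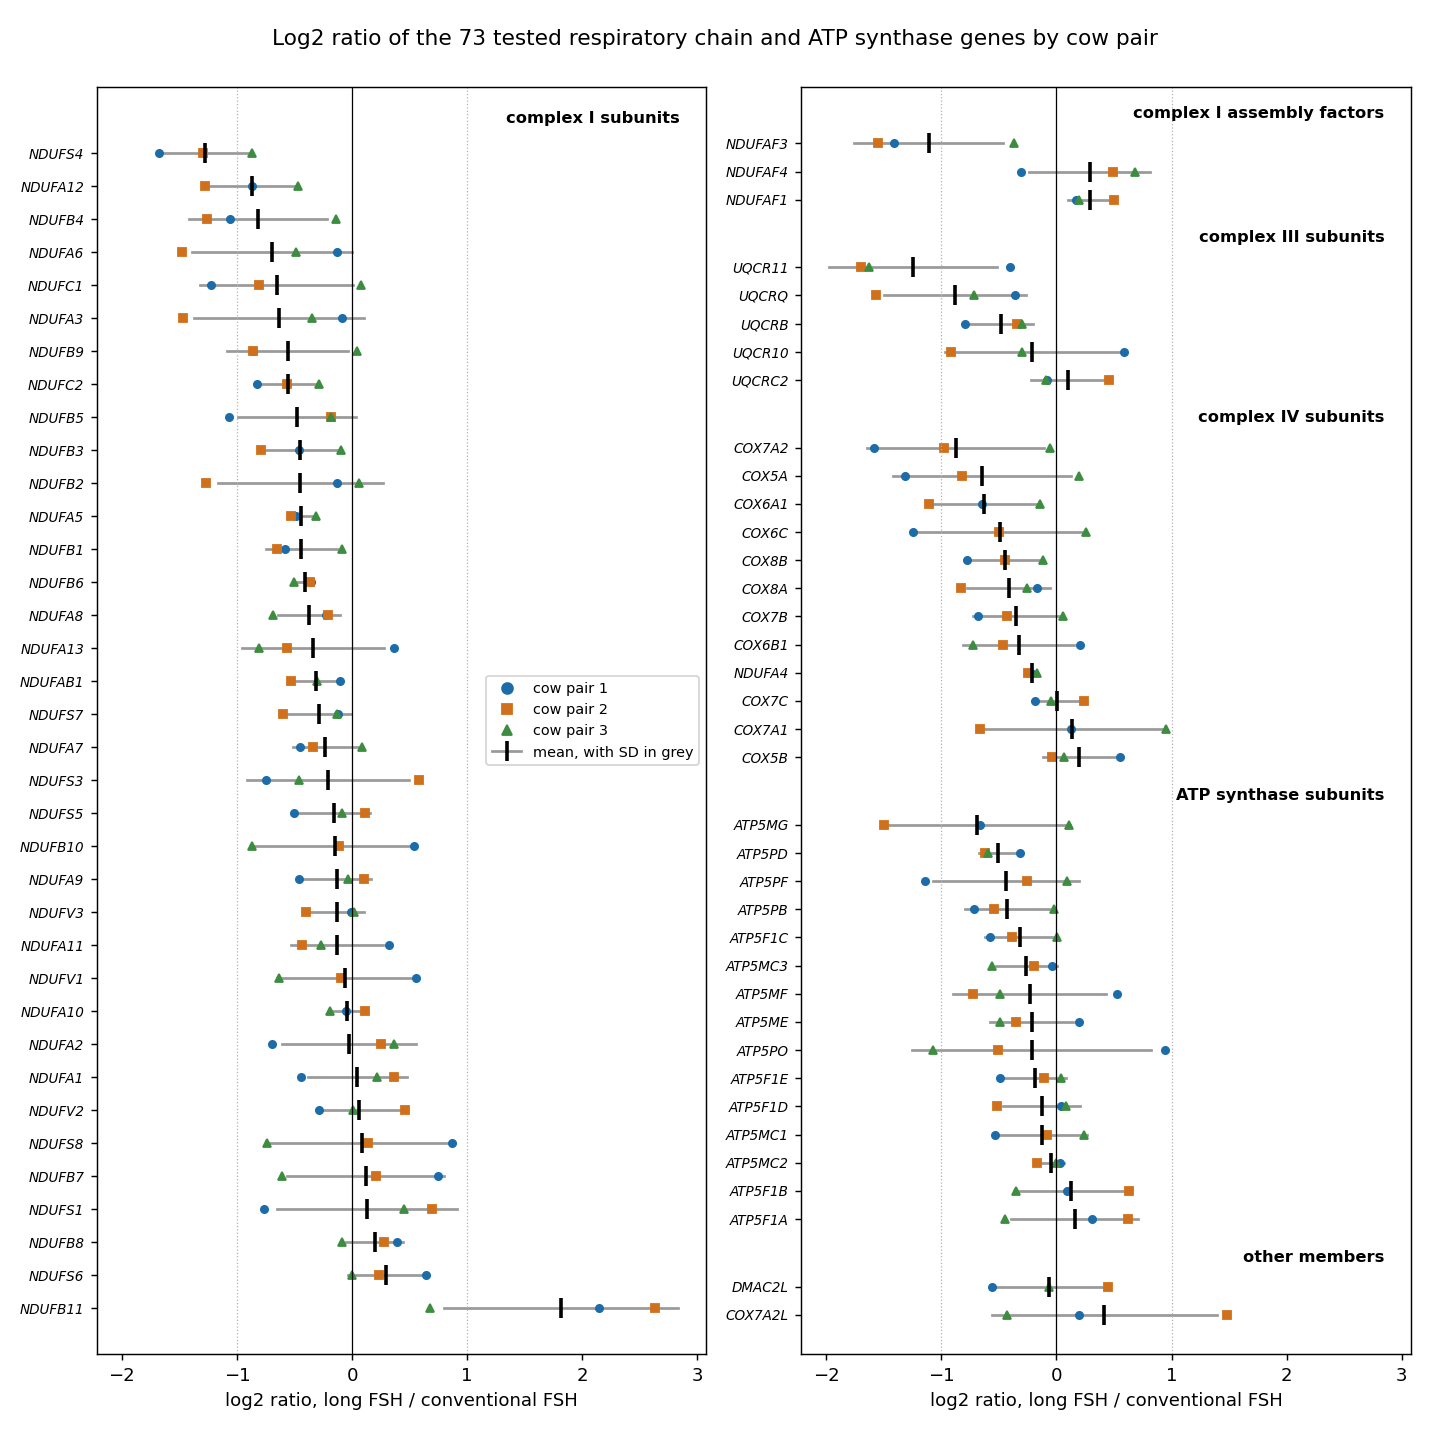
Log2 ratio of long FSH over conventional FSH on the horizontal axis for each of the 73 tested members, grouped by complex, with 1 symbol for each of the 3 cow pairs, a black tick for their mean and a grey line for the mean plus and minus SD. Dotted lines mark a 2-fold difference, which the means of NDUFS4, NDUFAF3 and UQCR11 pass on the lower side and that of NDUFB11 on the higher side.

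The cow pairs differed in how far they went. The median of the members was -0.31 in pair 1, -0.38 in pair 2 and -0.13 in pair 3, where that of all tested genes was 0.02, 0.04 and 0.00. In all 3 pairs, 26 members (35.6%) were below 0, against 17.2% of all tested genes, and 2 members, NDUFB11 and NDUFAF1, were above 0, against 18.8%. On all 6 arrays, 7 members were below 0 (9.59%, against 4.66% of all tested genes), namely NDUFS4, NDUFC2, NDUFA5 and NDUFA8 of complex I and UQCR11, UQCRQ and UQCRB of complex III, and 0 were above. By cow, the signals of the 3 long FSH cows all lay under those of the 3 conventional FSH cows for 11 members (15.1%), against 6.26% of all tested genes. They all lay over them for 2 members, again NDUFB11 and NDUFAF1, against 8.64% of all tested genes. NDUFAF1 was dim, above background in 5 of 6 readings of long FSH and 3 of 6 of conventional FSH.

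Set against the mean of the 6 cows, the median member stood at -0.04, -0.15 and -0.21 on the log2 scale in long FSH cows 1 to 3, and at 0.26, 0.21 and -0.08 in conventional FSH cows 1 to 3. The conventional FSH cow of pair 3 was therefore nearer to the long FSH cows than to the other conventional FSH cows. Over all tested genes the same medians stayed between -0.04 and 0.02. Without pair 3, 9 members (12.3%) passed the study's threshold downward, against 3.95% of all tested genes in the same fit. In that fit 12 members (16.4%) were lower at an unadjusted p of 0.05 or less, against 6.29% of all tested genes. Without pair 1 these counts were 3 (4.11%, against 1.77%) and 3 (4.11%, against 2.37%). Without pair 2 they were 2 (2.74%, against 1.82%) and 2 (2.74%, against 2.64%), the latter close to the share of all tested genes.

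Leukocyte markers moved with the pair as well. The 11 tested of 16 such markers had a median log2 ratio of 0.32 in pair 1, 0.42 in pair 2 and 1.62 in pair 3, with LYZ and TYROBP past the study's threshold as higher and CD4, CSF1R, ITGAM, ITGB2 and LCP1 not tested. Their summed signal was 3752, 3876 and 8668 units in long FSH cows 1 to 3, against 3029, 2697 and 6307 units in conventional FSH cows 1 to 3. Both cows of pair 3 thus had the highest sums. In conventional FSH cow 3, PTPRC alone, at 12.33 on the log2 scale, made most of the sum. No other tested leukocyte marker exceeded 7.24 in that cow, the value of CD3E. The 8 tested of 10 theca markers summed to 9783 to 17210 units in long FSH cows and 13400 to 31270 units in conventional FSH cows, with CYP17A1 and LHCGR not tested. Their calls ran both ways, since STAR passed the study's threshold upward and LUM downward, the list's median log2 ratio was 0.04, and LUM stood at 14.36 and 14.61 on the log2 scale in conventional FSH cows 2 and 3, most of their sums. The 4 tested of 8 endothelial markers summed to 497 to 584 units in long FSH cows and 542 to 678 units in conventional FSH cows. Of 6 red blood cell and 8 oocyte markers, 2 and 1 were tested, with haemoglobin genes among those not tested. The part of these cells in the ratios of the respiratory chain genes was not tested.

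The orientation of the dyes moved with the size of the shift. On arrays 1, 2 and 3 the median of the members was -0.42, -0.51 and -0.41, and on the dye-swapped arrays 4, 5 and 6 of the same extracts it was -0.12, -0.16 and 0.13. The first orientation was the lower one for 47 of the 73 members (64.4%), against 48.9% of all tested genes. Arrays 1 to 3 lay on slides 1 and 2 and arrays 4 to 6 on slides 3 and 4, so dye orientation and slide cannot be told apart. A dye effect would cancel in the mean of a swapped pair, which all values above use, whereas a slide effect need not. The 2 arrays of a pair agreed in sign for 47, 60 and 26 of the 73 members in pairs 1, 2 and 3. Across the 73 members, which share their labelling and arrays, swapped arrays correlated with r = 0.38, 0.65 and -0.04 in pairs 1, 2 and 3, against 0.58, 0.77 and 0.45 across all tested genes. The ratios of pair 3 were thus the least repeatable among these genes.

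**Figure D2:**
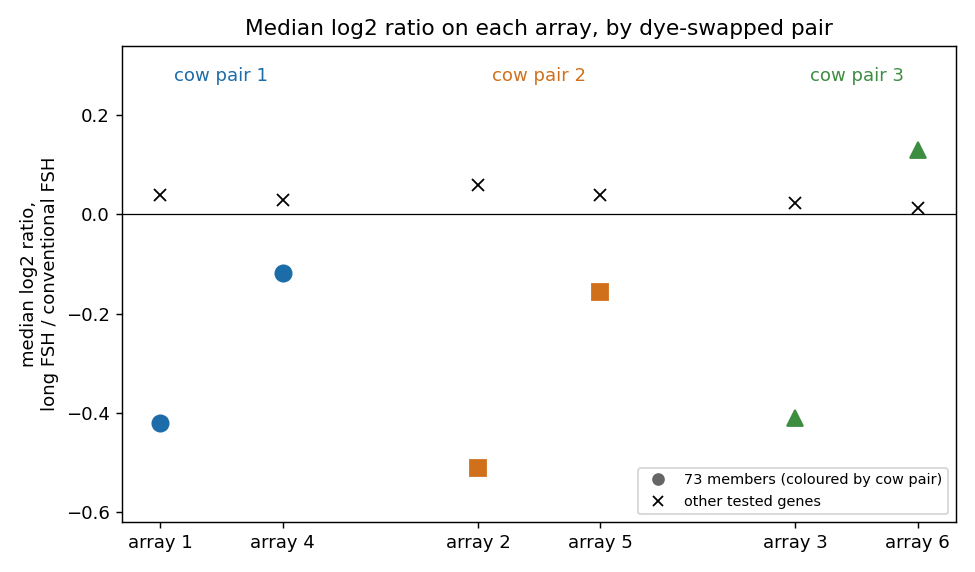
Median log2 ratio of long FSH over conventional FSH on each of the 6 arrays, which are ordered by cow pair, with coloured symbols for the 73 members and crosses for the other tested genes. In each pair the member median is lower on the first array than on its dye-swapped partner, and it is above 0 on array 6 alone, while the crosses stay close to 0.

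Complex I held members that passed the study's threshold downward and upward. Of its 36 tested subunits, 28 had a mean below 0, with a median of -0.26, 1 passed downward, 1 passed upward and 34 did not pass. NDUFS4, an accessory subunit of the NADH-oxidising arm that is needed late in assembly, had log2 signals of 13.25, 13.14 and 12.46 in long FSH cows 1 to 3, against 14.92, 14.43 and 13.33 in conventional FSH cows 1 to 3. Every long FSH cow lay below every conventional FSH cow, and both cows of pair 3 were the lowest of their groups. NDUFS4 fell, with a mean log2 ratio of -1.28 ± 0.40 (SD over n = 3 pairs), a fold of 0.412, at an unadjusted p of 0.00319 in limma. A second NDUFS4 probe gave -1.57, -0.54 and -0.47 in pairs 1 to 3, lower in all of them too.

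NDUFB11, an accessory subunit of the membrane arm, went the other way. Its log2 signals were 12.51, 13.12 and 12.16 in long FSH cows 1 to 3, against 10.37, 10.48 and 11.49 in conventional FSH cows 1 to 3, with no overlap. It rose, with a mean log2 ratio of 1.82 ± 1.02 (SD over n = 3 pairs), a fold of 3.52, at an unadjusted p of 0.00622 in limma and an adjusted p of 0.284. The ratio was 2.14 and 2.63 in pairs 1 and 2 but 0.67 in pair 3, where array 3 gave 0.00 and its swap gave 1.35. NDUFB11 was measured by 1 probe, and no other member of complex I had a mean ratio above 0.30.

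NDUFA12, an accessory subunit that takes the place of an assembly factor in the finished enzyme, had signals of 9.18, 9.38 and 8.90 in long FSH cows and 10.05, 10.65 and 9.37 in conventional FSH cows. Of the conventional FSH cows, only that of pair 3 lay within the range of the long FSH cows. Its log2 ratio of -0.87 ± 0.40 (SD over n = 3 pairs) had an unadjusted p of 0.0161 in limma without reaching 2-fold. NDUFA12 gave 0.10, -0.96 and 0.22 on arrays 1 to 3 but -1.84, -1.58 and -1.17 on arrays 4 to 6. Without array 4 its unadjusted p in limma was 0.162, and without array 6 it was 0.125. NDUFB4, a membrane arm subunit named here after its values were seen, had a mean of -0.82 ± 0.60 with an unadjusted p of 0.0370 in limma. Its ratio was -1.06 and -1.26 in pairs 1 and 2 and -0.14 in pair 3.

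Core and accessory subunits of complex I differed in their medians, a description that was not tested. The 6 tested core subunits, NDUFS1, NDUFS3, NDUFS7, NDUFS8, NDUFV1 and NDUFV2, had a median of 0.00 and ranged from -0.28 to 0.13, with 3 below 0 and 3 above. The 30 tested accessory subunits had a median of -0.36, with 25 below 0. Pair by pair, the core median was -0.20, 0.30 and -0.30 and the accessory median -0.40, -0.42 and -0.16, so that the order of both groups turned round in pair 3. NDUFV1, which binds FMN and oxidises NADH, gave 0.56, -0.10 and -0.63 in pairs 1 to 3. Several accessory subunits had small ratios that hardly varied between pairs. NDUFB6 gave -0.36, -0.37 and -0.50 and NDUFA5 -0.48, -0.53 and -0.31, both named after their values were seen. Single arrays spread wider. NDUFB6 gave 0.18 on array 1 and -0.89 on its swap, array 4, and NDUFA5 ran from -0.88 to -0.18 over the 6 arrays.

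Of the 3 assembly factors of complex I, 1 fell and 2 did not pass. NDUFAF3, which works on the ubiquinone module together with NDUFAF4, had signals of 11.37, 10.70 and 10.68 in long FSH cows and 12.78, 12.25 and 11.05 in conventional FSH cows. The third conventional FSH cow lay inside the range of the long FSH cows, and the other conventional FSH cows lay above it. NDUFAF3 fell, with a mean log2 ratio of -1.11 ± 0.65 (SD over n = 3 pairs), a fold of 0.463, at an unadjusted p of 0.0138 in limma. This call did not hold without pair 1, at -0.96 and an unadjusted p of 0.0781, nor without pair 2, at -0.89 and 0.0567. Its partner NDUFAF4 had ratios of -0.31, 0.49 and 0.68 in pairs 1 to 3, and NDUFAF1, a factor for the membrane arm, had 0.17, 0.50 and 0.20. With the deposited log2 ratios NDUFAF1 averaged 0.01.

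In complex III, 5 of the 7 member subunits were tested, with a median of -0.48, and 1 passed the study's threshold. UQCR11, a small accessory subunit, had signals of 11.85, 10.86 and 10.15 in long FSH cows and 12.25, 12.56 and 11.78 in conventional FSH cows. The groups overlapped only through the first long FSH cow and the third conventional FSH cow, and each pair was lower, by -0.40, -1.70 and -1.63. UQCR11 fell, with a mean log2 ratio of -1.25 ± 0.73 (SD over n = 3 pairs), a fold of 0.422, at an unadjusted p of 0.0117 in limma. UQCRQ, another small subunit, had signals of 13.06, 12.32 and 12.93 in long FSH cows and 13.42, 13.89 and 13.65 in conventional FSH cows, which did not overlap. Its log2 ratio was -0.88 ± 0.62 (SD over n = 3 pairs) with an unadjusted p of 0.0303 in limma.

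UQCRB, the ubiquinone-binding protein of complex III, was also lower in every pair, at -0.80, -0.34 and -0.30, with an unadjusted p of 0.0873 in limma. UQCRC2, a large core protein, gave -0.08, 0.46 and -0.09 and was the 1 tested member of this complex with a mean above 0. CYC1, a subunit of complex III that the symbol rule leaves out, averaged 0.125. UQCR10, named after its values were seen, varied most, from 0.59 in pair 1 to -0.92 in pair 2. UQCRC1 and UQCRH did not pass the limit of background and were not tested.

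**Figure D3:**
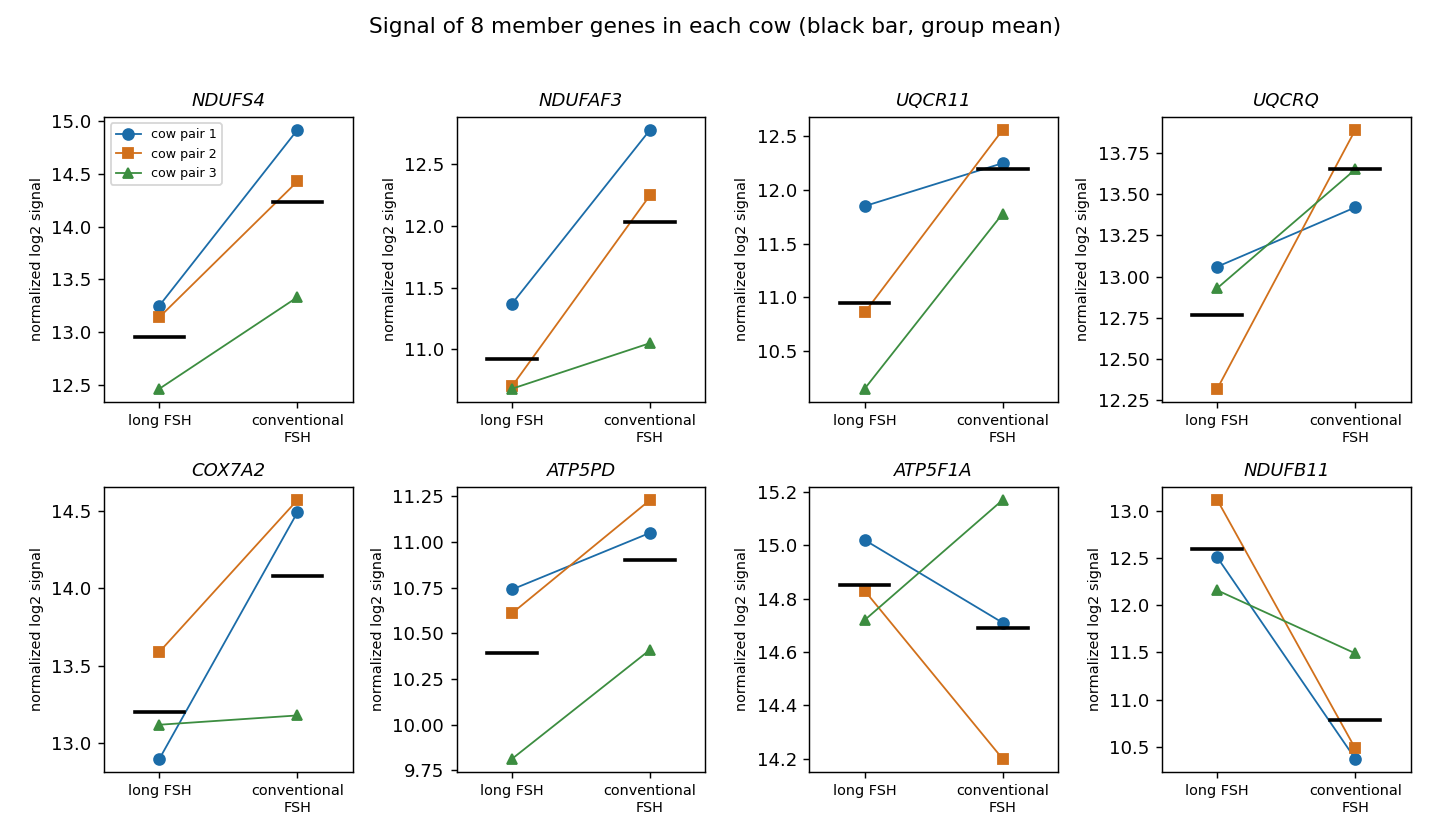
Normalized log2 signal of 8 members in each cow, with long FSH on the left and conventional FSH on the right of each panel, a line joining the cows of a pair and a black bar for the group mean. NDUFS4 and UQCRQ show long FSH cows all below conventional FSH cows, NDUFB11 shows the reverse, and ATP5F1A shows lines that cross.

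Complex IV had 12 tested subunits, of which 9 had a mean below 0 and none passed the study's threshold, with a median of -0.39. COX7A2, the liver-type isoform of subunit 7A that most tissues use, had signals of 12.90, 13.59 and 13.12 in long FSH cows and 14.49, 14.57 and 13.18 in conventional FSH cows. The third conventional FSH cow lay within the range of the long FSH cows, and the ratio was -1.59 and -0.98 in pairs 1 and 2 and -0.06 in pair 3. The mean log2 ratio was -0.88 ± 0.77 (SD over n = 3 pairs) with an unadjusted p of 0.0477 in limma, and a second COX7A2 probe gave -1.42, -0.84 and 0.08. The muscle isoform COX7A1 gave 0.13, -0.66 and 0.95, a spread that left no direction.

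For subunit 8 both isoforms were lower in every pair. The ubiquitous COX8A had signals of 10.94, 10.39 and 11.09 in long FSH cows and 11.11, 11.21 and 11.35 in conventional FSH cows, and a mean ratio of -0.42 with an unadjusted p of 0.144. COX8B, the heart and muscle isoform, had signals of 6.99, 7.30 and 7.43 in long FSH cows and 7.77, 7.75 and 7.54 in conventional FSH cows, and a mean ratio of -0.45 with an unadjusted p of 0.116. COX8B was dim, above background in 4 of 6 readings of long FSH and 5 of 6 of conventional FSH. The isoforms COX6A2 of muscle and COX6B2 of testis were not tested, while the common forms COX6A1 and COX6B1 averaged -0.63 and -0.33, and COX7B averaged -0.35. COX5B had the highest mean of complex IV, at 0.19. NDUFA4, once counted with complex I and now placed in complex IV, hardly varied between pairs at -0.22, -0.24 and -0.17. On single arrays it ran from -0.41 to 0.06.

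COX5A, which forms part of the matrix side of complex IV, was the member whose probes disagreed most in size. Its brightest probe gave -1.32, -0.82 and 0.20 in pairs 1 to 3, with an unadjusted p of 0.115. A second probe gave -1.60, -3.40 and -1.75, a mean of -2.25. The other COX5A probes averaged -0.56 and -0.47, near the brightest one. Among the 25 members with more than 1 tested probe, the median range between probes was 0.29, COX5A alone exceeded 1, and 6 members had probes of opposite mean sign, among them COX7A2L and DMAC2L.

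ATP synthase had 15 tested subunits, of which 13 had a mean below 0 and none passed the study's threshold or an unadjusted p of 0.05, with a median of -0.22. The 10 subunits of Fo and the peripheral stalk all had means below 0, from -0.69 to -0.05, with a median of -0.25. The 5 subunits of F1 had a median of -0.13, with 3 below 0. ATP5MG, membrane subunit g, had the lowest mean, from -0.67, -1.50 and 0.11 in pairs 1 to 3. ATP5PD, subunit d of the peripheral stalk, had the smallest p, with signals of 10.74, 10.61 and 9.81 in long FSH cows and 11.05, 11.23 and 10.41 in conventional FSH cows. Its groups overlapped although each pair was lower, and the mean of -0.51 ± 0.17 (SD over n = 3 pairs) had an unadjusted p of 0.0615 in limma. A second ATP5PD probe averaged -0.06.

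ATP5PB, subunit b of the same stalk, gave -0.72, -0.54 and -0.02. ATP5F1A, the alpha subunit of the F1 head, had the highest mean of the enzyme at 0.16, with signals of 15.02, 14.83 and 14.72 in long FSH cows and 14.71, 14.20 and 15.17 in conventional FSH cows. Pairs 1 and 2 were higher after long FSH and pair 3 lower, by -0.45. The 3 genes for the c subunit of the rotor ring make the same mature protein, and their ratios averaged -0.12 for ATP5MC1, -0.05 for ATP5MC2 and -0.26 for ATP5MC3. ATP5MC3 was lower in every pair without overlap of the cows, with signals of 9.99, 9.80 and 9.58 in long FSH cows and 10.03, 9.996 and 10.13 in conventional FSH cows, yet its unadjusted p was 0.299.

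**Figure D4:**
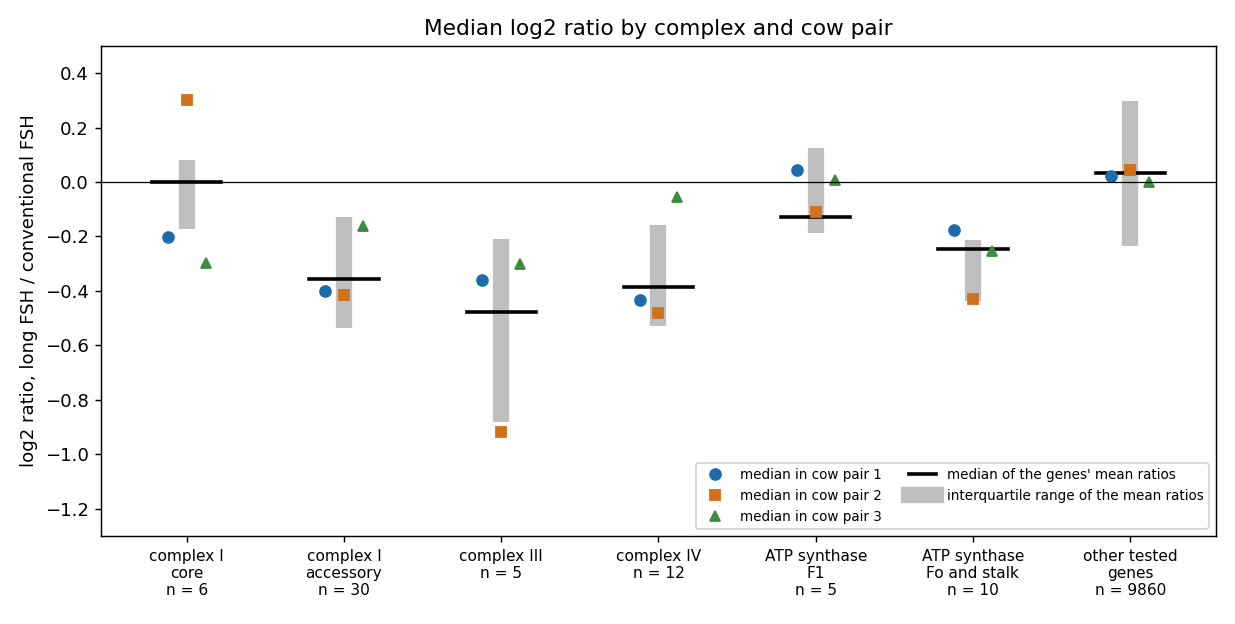
Median log2 ratio of long FSH over conventional FSH for the subunits of each complex and for the other tested genes, with 1 symbol for each cow pair, a black bar for the median of the mean ratios and a grey bar for their interquartile range. Complexes III and IV, the accessory subunits of complex I and the Fo part of ATP synthase lie below 0 in every pair, whereas complex I core and F1 subunits straddle 0.

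Of the members outside these groups, COX7A2L, which joins complexes III and IV into supercomplexes, gave 0.19, 1.48 and -0.43 in pairs 1 to 3. DMAC2L, annotated on the array as ATP5S, averaged -0.06. NDUFA4L2, a paralog of NDUFA4 induced in hypoxia, was not tested. Neither tested gene passed.

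Neighbouring genes of the pathway were counted from lists chosen from general knowledge. Complex II, which feeds electrons from succinate and which the rule leaves out, had 7 of 8 listed genes tested with a median of 0.02, none of which passed the study's threshold in either direction. Of 31 listed assembly factors of complexes III, IV and ATP synthase, 21 were tested with a median of -0.22, and 0 passed. Of these 21, 6 were below 0 in all pairs, against 17.2% of all tested genes, a contrast that was not tested. The 5 electron carriers and their reductases had a median of 0.10 and 0 passed. Among them CYCS, cytochrome c itself, was lower in each pair, at -0.17, -0.50 and -1.21. CYC1, a cytochrome subunit of complex III that the rule leaves out, gave 0.73, 0.25 and -0.60. Of 12 listed regulators of mitochondrial biogenesis, 9 were tested with a median of -0.01 and 0 passed. NRF1, a transcription factor for many respiratory chain genes, had ratios of -0.19, -0.93 and -0.80 with an unadjusted p of 0.0473 in limma. None of the 13 subunits encoded by mitochondrial DNA was among the tested genes. Whether the members differ from these lists was not tested.

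Most members were bright. When all tested genes were divided by signal into 3 equal classes, 57 of the 73 members fell in the brightest class, where the median ratio was -0.32 for members and 0.06 for other genes. In the middle class it was -0.28 for 11 members and 0.02 for other genes. The 5 members of the dimmest class had a median of 0.12, against 0.02 for other genes.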

How the data were processed

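The authors amplified RNA linearly, labelled it with Cy3 and Cy5 and scanned 6 arrays. The deposited intensity values are medians of foreground and background per spot. The deposited log2 ratios were made by the authors with background subtraction, loess and quantile normalization, and each column follows the dye-swap partner of its array (r = 0.84 to 0.90). They were used as an alternative only, with signs set from the labelled dyes.

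For the present values, the median background was subtracted with a floor of 0.5 for results that were not positive, and loess was applied within each array. Quantile normalization of mean intensities left the ratios unchanged. The dye-swapped arrays of each pair were combined into 1 mean, and the 3 means of every tested gene entered limma 3.58.1 (R 4.3.3), with Benjamini-Hochberg adjustment. Cows of a pair shared arrays, and their deviations from group means correlated at r = 0.26, 0.11 and 0.15, against 0.04 at most between pairs.

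Background was taken as the mean plus 2 SD of 153 negative controls, and probes over it in 3 or more of the 6 readings of long FSH or of conventional FSH were tested, which left 23480 of 43794 probes. Probe symbols came from the platform annotation, of which 982 were updated through RefSeq synonyms, and a gene was represented by its brightest tested probe. A cow's signal is the mean of its channel over both arrays. The number of arrays limits the precision. The fit was tested on simulated data.

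Named were members past the study's threshold. In each complex, those with the 3 smallest p and the highest and lowest mean were added, with tissue isoforms of complex IV and the c subunit genes. Members and lists were chosen with earlier results of these data known. Alternatives covered background, normalization, filters, array-level fits, probe choice, the deposited ratios and leaving out each pair or array. No probe sequences or genome coordinates were used here.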

Additional observations from a re-analysis of the deposited data

How the results depend on the processing

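The median of all members stayed below 0 in every other setting run. Fits to 6 arrays count dye swaps of the same extracts as observations. With the cow pair as a replicate block, such a fit took 3 members (NDUFB11, NDUFS4 and UQCR11) and 362 genes in all past the adjusted threshold, where 1 mean for each of 3 cow pairs took 0, and 12 members (16.4%, against 14.9% of all genes) had an unadjusted p of 0.05 or less in either direction. The dye term without a block and the slide as a random block also gave 3 past the adjusted threshold, with 16 (21.9%, against 17.7%) and 18 (24.7%, against 19.0%) at the unadjusted p. That count was 4 (5.48%, against 2.92%) with limma's trend and robust options and 14 (19.2%, against 9.37%) with the deposited log2 ratios. A 1.5-fold limit gave 7 members lower at the study's threshold (9.59%), against 3.79% of all genes. Leaving out 1 cow pair or array gave 2 to 9 members lower at 2-fold (2.74% to 12.3%, against 1.77% to 3.95% of all genes), with 9 without pair 3. It gave 3 to 13 with the unadjusted p at or under 0.05 (4.11% to 17.8%, against 6.06% to 14.55% of all genes). At this p in either direction, the members' share was under that of all genes without pair 1 (5.48%, against 6.06%) and without pair 2 (4.11%, against 7.31%). It was also under it without array 1, 2 or 3, and over it in the other fits of this kind. With 1 pair or array left out, the median of complex I was -0.37 to -0.15. The lowest and highest of these medians came without array 6 and array 3. Probes above background in all readings gave -0.41 for the assembly factors of complex I, since NDUFAF1 then left the test. NDUFAF3 lost its call in 5 settings, the deposited ratios and without pair 1, pair 2, array 1 or array 3. NDUFS4, UQCR11 and NDUFB11 kept their calls in the 23 settings run for each. Named genes gave 641 other values, of which 619 stayed on their side of the threshold and within 1 SD where not called, 9 moved further, 8 gained a call and 5 lost it, all of these being NDUFAF3. The cause of these changes was not tested except where stated. With 3 pairs, ratios under 2-fold are hard to separate from the spread between cows.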

Other observations

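Current nomenclature places 5 further tested genes with these complexes, whose older array symbols the rule does not take. ATP5MK, a small membrane subunit of ATP synthase, was lower by a like amount in all 3 cow pairs, at -0.47, -0.53 and -0.57, with an unadjusted p of 0.0505 in limma. ATP5MJ, another small membrane subunit, gave 0.26, -0.57 and -0.56. ATP5IF1, which inhibits the enzyme when it runs in reverse, gave -0.48, 0.33 and -0.29. COX4I1, the ubiquitous isoform of subunit 4 of complex IV, gave -0.77, -0.71 and 0.29. NDUFAF7, an assembly factor of complex I, averaged 0.10.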
